A study of Homo sapiens with 3 samples.

Results

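The cells described here are 366 sensitive CAMA-1 breast cancer cells that carried a proliferative phase call after 11 days under ribociclib, out of 3329 annotated sensitive cells grown alone and 19237 annotated cells in all. They were taken from the deposited cell annotation as the monocultured sensitive cells with phase S (176 cells) or phase G2M (190 cells), and were compared with the 2963 monocultured sensitive cells with phase G1. CAMA-1 is an established estrogen receptor-positive luminal line, and ribociclib is an inhibitor of the kinases CDK4 and CDK6. A Venus-labelled sensitive lineage and an mCherry-labelled ribociclib-resistant lineage were plated as spheroids of 2000 cells, each alone or mixed at 50% each, and every spheroid sample received 1 µM ribociclib, so no untreated cells enter any comparison. Each of the 3 conditions is 1 library, made from frozen and thawed spheroid cells with droplet 3' single-cell RNA sequencing. Cells of 1 library are not replicates. No difference between phases was therefore tested, and the 95% intervals given cover counting error only.

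CDK4 and CDK6, bound to D-type cyclins, phosphorylate the retinoblastoma protein RB1 and so release E2F transcription factors, which switch on the genes for DNA replication. Blocking these kinases holds cells with an intact pathway in G1. Cells in S phase copy DNA and pack it on new histones, and cells in G2 and mitosis build the spindle, with many genes of the latter program switched on through CHR and CCAAT promoter elements.

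The phase calls rest on 2 scores per cell, computed by the authors from lists of S and G2M genes, with G1 given to cells in which neither score is above 0. Expression of those list genes is therefore fixed by the choice of cells. The paper refers to canonical markers and names no list, so the S and G2M lists of the Seurat package were taken for them here. Many cells lay close to this limit, since 374 G1 cells had a larger score within 0.05 below 0 and 84 cycling cells within 0.05 above it. Another 29 cycling cells lay between 0.05 and 0.1, and 253 above 0.1. With every cell thinned to 5000 UMIs and scored anew, 329 of the 366 cells kept a cycling call and 254 of the 2963 G1 cells (8.57%) gained one. Of the 366 cells, 231 were in cluster 7 of the deposited clustering, 88 in cluster 4 and 40 in cluster 3. Cluster 7 held only 1 G1 cell of the sensitive monoculture, and 69.6% of its cells in the series were cocultured sensitive cells. The median of the larger score was 0.367 for the cycling cells of cluster 7 and 0.0345 for those of cluster 4. Of the 84 cycling cells within 0.05 above 0, 53 were in cluster 4, where 1857 of 1945 cells had a G1 call.

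**Figure D1:**
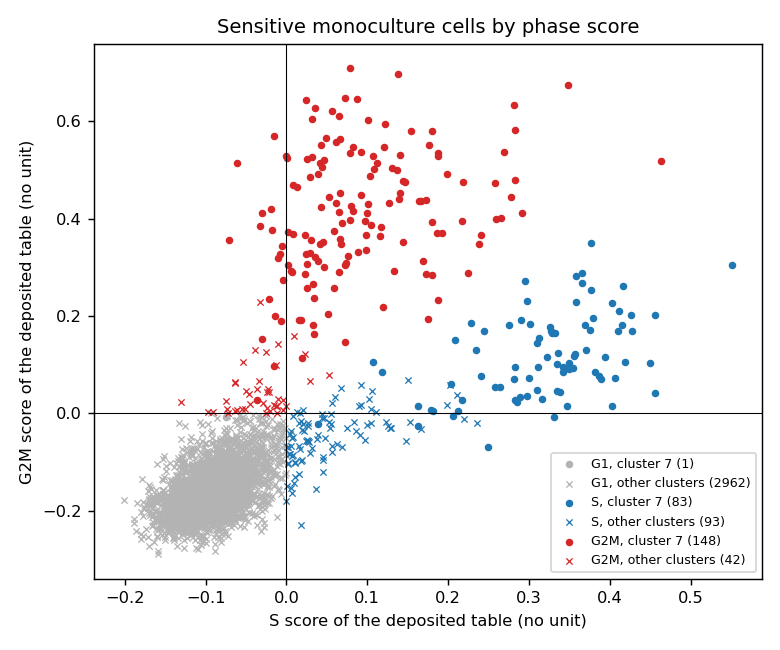
Each point is 1 sensitive monoculture cell, placed by the S score (x axis) and the G2M score (y axis) of the deposited table, neither of which has a unit. Colours give the phase call and filled circles mark cluster 7, which holds 228 of the 253 cycling cells whose larger score is above 0.1.

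The cycling cells also differed from the G1 cells in depth and RNA makeup. The median cell held 37177 unique molecular identifiers (UMIs, counted molecules) in 5346.5 genes among cycling cells and 26713 UMIs in 4538 genes among G1 cells. Mitochondrial transcripts made up a median of 18.0% of UMIs in cycling and 21.2% in G1 cells. Doublet scores above 0.25 were found in 17 of 366 cycling cells (4.64%, exact 95% interval 2.73 to 7.33%) and 38 of 2963 G1 cells (1.28%, 0.909 to 1.76%). The sensitive label mVenus had at least 1 UMI in 73.0% of cycling and 67.2% of G1 cells, and the resistant label mCherry in 0 of 366 cycling cells, which allows up to 0.820% of cells with an mCherry UMI (3 counts) and does not bound the share of labelled cells, since mVenus too was missed in part of the cells that should carry it. The library shared 8 cell barcodes with the coculture and 7 with the resistant monoculture, and 1 cycling cell carried a shared barcode. The part of depth, mitochondrial share and doublets in the differences below was not tested beyond the alternatives given with the processing.

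Counts were added up within each class, to 13520238 UMIs from cycling and 82727493 from G1 cells, and divided by the class total in units of 1e+06 UMIs (CPM). A gene was called higher or lower when (CPM + 1) differed by more than 1.5-fold. The mean of both classes reached 10 CPM for 6924 genes, of which 560 (8.09%) were called higher and 282 (4.07%) lower in cycling cells. Known cycle genes, histone genes and genes of the CDK4/6 axis were then set aside. They took 1.98% of UMIs in G1 and 4.40% in cycling cells, and 256 of 340 were called higher. Apart from these and the transgene mVenus, 6583 genes remained, of which 304 (4.62%) were called higher and 278 (4.22%) lower, around a median log2 ratio of 0.02. Scaling to totals without MALAT1, NEAT1 and mitochondrial transcripts moved that median to -0.10 and the counts to 183 higher and 491 lower. G1 cells weighted to the UMI and mitochondrial mix of the cycling cells gave 204 higher and 87 lower, and leaving out the cycling cells of cluster 7 gave 107 and 190.

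**Figure D2:**
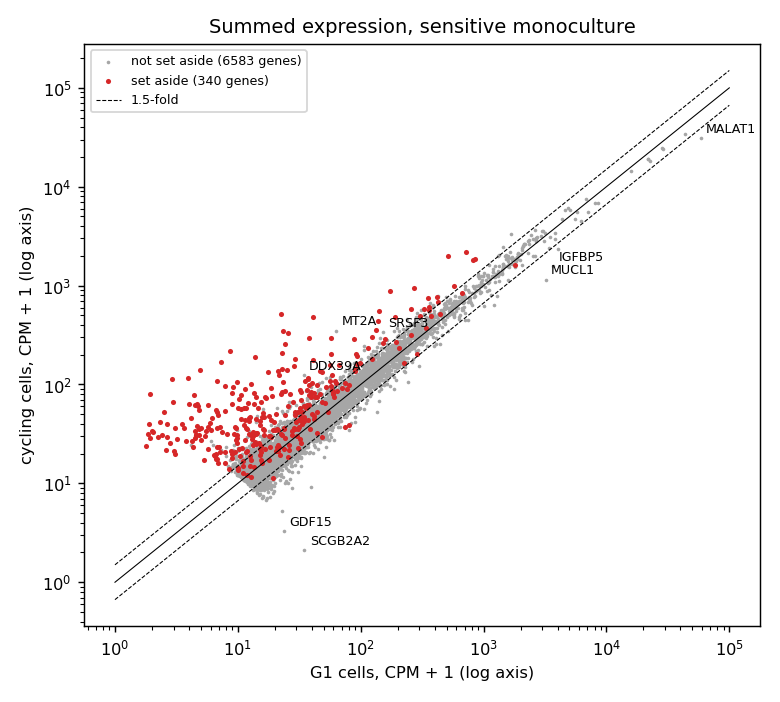
Each point is 1 gene, with summed expression in G1 cells on the x axis and in cycling cells on the y axis, both as CPM + 1 on log axes. Red points are the 340 genes set aside, grey points the 6583 others, and dashed lines mark 1.5-fold, beyond which 304 grey points lie above and 278 below.

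The genes set aside were mostly higher in cycling cells. RRM2, a subunit of the ribonucleotide reductase that supplies DNA building blocks, stood at 1.9 CPM in G1, 115 in S and 110.2 in G2M cells. MKI67, the classical proliferation antigen, stood at 3.88, 80.3 and 194 CPM, and PTTG1, which encodes the mitotic inhibitor securin, at 40.2, 152 and 790.0 CPM. The replication-coupled histone gene HIST1H4C had the order of phases opposite to MKI67 and PTTG1, at 867 CPM in S and 174 in G2M cells against 21.6 in G1. Other histone genes went the other way, and HIST1H2BD (73.9 CPM in G1, 35.8 in cycling cells) and HIST1H4H (79.5 and 37.5 CPM) were called lower. RRM2 and MKI67 are on the lists taken for the phase calls, so their values describe the choice of cells, while PTTG1 and the histone genes are on other cycle lists.

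Within the CDK4/6 axis, 6 of 16 measured genes were called higher and 0 lower (median log2 ratio 0.21), beside 8.09% and 4.07% of all 6924 genes. The median was 0.10 within cluster 4 and 0.0001 within cluster 3, and 0.29 for cycling cells of cluster 7 against G1 cells of cluster 4. CCNE2, one of the 6, is also on the S list taken for the phase calls, so its value describes the choice of cells. E2F1, the founding E2F factor, stood at 14.8 CPM in G1 and 45.9 in cycling cells, 3.1-fold higher (95% interval 2.81 to 3.42). CCNE2 and CCNE1, the E-type cyclins that activate CDK2 at the entry to S phase, were 12.7-fold (10.3 to 15.7) and 2.93-fold (2.53 to 3.40) higher. Both were highest in S cells, at 34.8 CPM for CCNE2 and 29.9 CPM for CCNE1. At 1.62 and 6.81 CPM in G1 cells, CCNE2 and CCNE1 met the 10 CPM mean through the cycling class only, which favours a high ratio. CDK4, a target of the drug, stood at 98.5 CPM in G1 and 164 in cycling cells, 1.66-fold higher (1.59 to 1.74), but its log2 ratio was 0.47 within cluster 4 against 0.73. CCND1, which encodes the cyclin partner of CDK4, differed little, at 1811 CPM in G1 and 1632 in cycling cells. RB1 stood at 20.2 and 23.3 CPM. CDK6 had 0 UMIs in the cycling cells and 0.218 CPM in G1 cells, so no difference was detectable at this depth. Of 5 measured CDK inhibitors, 2 were called higher, beside the same 8.09% of all genes, CDKN3 (20.8 to 124 CPM, a phosphatase gene that peaks late in the cycle) and CDKN2D (12.9 to 24.9 CPM, with a log2 ratio of 0.19 within cluster 4 against 0.90), while CDKN1B (p27) stood at 20.8 and 22.3 CPM and CDKN1A (p21) at 24.7 and 17.3 CPM.

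Outside the cycle genes, the metallothionein MT2A (GRCh37 chr16:56642496-56643409 by Ensembl ID in the GENCODE annotation), a small metal-binding protein, had the highest ratio where the mean reached 50 CPM. It stood at 61.8 CPM (60.1 to 63.5) in G1 cells, 173 CPM in S cells and 516 CPM in G2M cells, which made it 5.64-fold higher in all cycling cells (5.42 to 5.86). After every cell was thinned to 5000 UMIs, 54.6% of cycling and 18.8% of G1 cells still had an MT2A UMI, against 86.3% and 49.6% unthinned. The level depended on the cluster. Cycling cells of clusters 7 and 3 had 423 and 503 CPM, those of cluster 4 had 90.6 CPM, and G1 cells of clusters 3 and 4 had 251 and 42.7 CPM. The related MT1X was 1.53-fold higher (1.44 to 1.63) but inside 1.5-fold under 7 of the alternatives, such as TMM scaling (log2 ratio 0.57) and UMI and mitochondrial weighting (0.22), and the other 7 of 9 metallothioneins were below 10 CPM.

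DDX39A, an RNA helicase of messenger RNA export, came next in the order and stood at 33.4 CPM in G1 and 124 in cycling cells (3.71-fold, 3.49 to 3.94), with 89.4 CPM in S and 157 in G2M cells. BCL2L12, of the BCL2 family by name, followed at 2.45-fold (2.29 to 2.61), and then the export factor ALYREF at 2.41-fold (2.25 to 2.58). The splicing factors SRSF3 and SRSF7 were 2.23-fold (2.16 to 2.31) and 2.09-fold (2 to 2.18) higher, SRSF3 at 243 CPM in S and 423 in G2M cells. The chromatin proteins SSRP1, HMGA1 and H1FX were 2.25-fold, 2.25-fold and 2.16-fold higher, SSRP1 being a subunit of the histone chaperone FACT and H1FX a linker histone that was not caught by the symbol pattern used for histones. H1FX came inside 1.5-fold within cluster 4 (log2 ratio 0.23 against 1.09) and without the cycling cells of cluster 7 (0.31). SRSF3 did so within cluster 4 (0.54), and SRSF7 with G1 cells weighted to the mix of clusters 3 and 4 (0.52), as did SIVA1 (0.57) and ODC1 (0.51). That weighting took only cycling cells of clusters 3 and 4, with median larger scores of 0.0383 and 0.0345. It left out the 231 cycling cells of cluster 7. SIVA1 at 2.3-fold and ODC1, the first enzyme of polyamine synthesis, at 2.28-fold stood between ALYREF and these chromatin and splicing genes, and C19orf48 was 2.13-fold higher. Of these 12, C19orf48 was higher in S (99.5 CPM) than in G2M cells (67.2 CPM), and the other 11 were higher in G2M cells.

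At lower expression the highest genes were TCF19 (2.02 to 19.9 CPM), CIP2A (3.18 to 23.4 CPM), WDR62 (5.08 to 25.7 CPM), CA8 (5.28 to 23.2 CPM) and PHGDH (15.1 to 55.8 CPM). All but PHGDH were under 10 CPM in G1 cells and met the 10 CPM mean through the cycling class only. A high ratio was thus built into their entry. WDR62, a spindle pole protein, is itself linked to mitosis, so the genes left after setting lists aside still include cycle genes. PHGDH, the first enzyme of serine synthesis, was 3.69-fold higher (3.36 to 4.04).

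Promoters of the genes called higher were searched for the cycle elements named above, in RefSeq windows of 300 bases (GRCh38.p14, 250 before and 50 after the gene start). An E2F motif (TTTCCCGC, TTTGGCGC, TTTCGCGC or TTTGCCGC, either strand) was found in 12.7% of the 251 promoters that matched the 304 genes called higher, in 3.23% of 217 promoters of genes called lower, in 5.50% of all measured genes outside the set-aside lists and in 3.33% of all 27305 promoters. CCAAT was found in 45.4%, 34.6%, 37.2% and 35.7% of the same sets. The CHR core TTTGAA was found in 9.96%, 6.91%, 8.20% and 15.4%, against 42.9% of the 77 matched promoters of the phase-list genes, which held E2F motifs in 24.7% and CCAAT in 70.1%. Of the 17 highest genes named outside the lists, 14 had a promoter in the table, of which 8 held any of these motifs, 7 CCAAT, 2 an E2F motif and 0 TTTGAA. The 160 bases before the start of WDR62 (chr19:36054737-36054896, plus strand), DDX39A (chr19:14419384-14419543, minus strand) and TCF19 (chr6:31158429-31158588, plus strand) are shown because they hold such matches, with E2F and CCAAT matches on either strand in capitals. A match is a description of letters and not a bound site.
WDR62: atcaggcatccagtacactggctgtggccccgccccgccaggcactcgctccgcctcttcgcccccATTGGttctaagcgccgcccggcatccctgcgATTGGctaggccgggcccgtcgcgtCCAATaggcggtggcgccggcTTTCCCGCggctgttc
DDX39A: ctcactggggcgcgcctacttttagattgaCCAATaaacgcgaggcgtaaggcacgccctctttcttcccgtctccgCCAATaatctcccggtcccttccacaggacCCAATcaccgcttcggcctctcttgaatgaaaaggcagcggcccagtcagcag
TCF19: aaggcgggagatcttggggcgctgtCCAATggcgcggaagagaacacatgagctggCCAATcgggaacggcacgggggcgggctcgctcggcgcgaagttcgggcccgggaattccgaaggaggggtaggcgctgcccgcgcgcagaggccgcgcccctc

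Among genes lower in cycling cells, MUCL1 (chr12:55224302-55289792), a small secreted mucin-like protein of breast epithelium, stood at 3199 CPM in G1 and 1143 in cycling cells, 2.80-fold lower (2.76 to 2.85). IGFBP5, a secreted binding protein for insulin-like growth factors, stood at 3683 and 1566 CPM, 2.35-fold lower (2.32 to 2.39). SPTSSB, a subunit of the enzyme that starts sphingolipid synthesis, was 2.59-fold lower (2.40 to 2.80), and the calcium-binding protein S100A1 2.29-fold lower (2.17 to 2.42). SRCAP, LINC02303, LMTK3, LURAP1L, DST, CLIC3 and MGLL were 1.91-fold to 2.33-fold lower. With G1 cells weighted to the mix of clusters 3 and 4, SPTSSB, S100A1, LINC02303, LMTK3, LURAP1L, DST and CLIC3 came inside 1.5-fold (log2 ratios of -0.58 to -0.26), while with UMI and mitochondrial weighting S100A1, DST and MGLL did (-0.57 to -0.45). The cluster weighting again left out the 231 cycling cells of cluster 7. The last of the 12 lowest, the nuclear RNA MALAT1, stood at 58346 and 30821 CPM (1.89-fold lower, 1.89 to 1.9), the largest difference in CPM of any named gene, but its log2 ratio was only -0.15 within cluster 4 and -0.32 with G1 cells weighted to the mix of clusters 3 and 4, against -0.92 here.

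Some of the lowest genes at 10 to 50 CPM had most of their G1 UMIs in few cells. SCGB2A2, the breast secretoglobin mammaglobin, stood at 33.8 CPM in G1 and 1.11 CPM in cycling cells, but 97.3% of its G1 UMIs were in the top 1% of cells. For GDF15, a stress-induced cytokine (22.6 and 2.29 CPM), that share was 65.2%, and for KRT81 (22 and 4.29 CPM) 91.1%. SCGB2A2, GDF15 and KRT81 met the 10 CPM mean through the G1 class only, so a low ratio was built into their entry. KRT81 turned to a log2 ratio of 0.59 within cluster 4, and with G1 cells weighted to the mix of clusters 3 and 4 the ratios of SCGB2A2, GDF15 and KRT81 were -0.11, -0.17 and -0.15. GDF15 stood at 114 CPM in the G1 cells of cluster 8 and at 2.41 CPM in those of cluster 4, and only 2 of 681 cells of cluster 8 had an S or G2M call. TSPAN1 and LINC01133 were spread more evenly, with 12.7% and 12% in the top 1% of cells, and were 3.31-fold (2.73 to 4.04) and 4.71-fold (3.89 to 5.74) lower. Both also met the 10 CPM mean through the G1 class only, so a low ratio was built into their entry as well.

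MT2A and MUCL1, both chosen by the ratio between the classes, also took ordered levels over the score ranges inside the G1 class. MT2A stood at 45.1 CPM in G1 cells with a larger score at or below -0.1, 63.4 CPM between -0.1 and -0.05 and 104 CPM between -0.05 and 0. It then stood at 232, 151, 309 and 443 CPM in the 4 rising score ranges of cycling cells. MUCL1 went from 3408 to 3121 and 2872 CPM across the G1 ranges and stood at 1307 CPM just above 0.

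**Figure D3:**
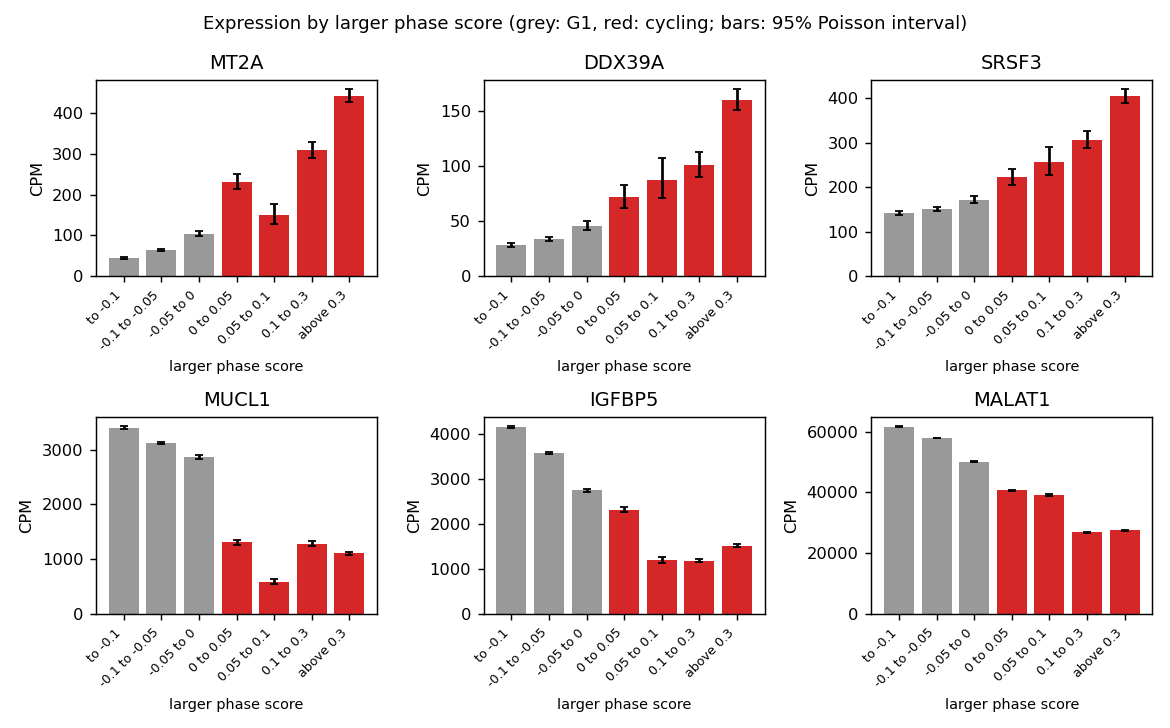
Bars give CPM of summed counts in 7 ranges of the larger phase score for 6 genes, grey for G1 and red for cycling cells, with 95% Poisson intervals. MT2A, DDX39A and SRSF3 were higher and MUCL1, IGFBP5 and MALAT1 lower in cycling cells, and MUCL1 stood at 2872 CPM just below 0 and 1307 CPM just above.

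The cluster of a cell moved with these levels. Within cluster 4 alone, 96 genes not set aside were called higher and 84 lower in cycling cells, whose median larger score was only 0.0345. The 10 CPM mean was taken anew there, so these counts are not out of the same 6583 genes. They include 63 of the 304 and 49 of the 278 genes called over all clusters. S100A1 differed between clusters and between phases, at 268 CPM in G1 cells of cluster 4, 176 CPM in its cycling cells, 51.7 CPM in G1 cells of cluster 3 and 39.2 CPM in its cycling cells.

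Gene lists were described by their medians and counts beside all genes not set aside, whose median was 0.02 and of which 4.62% were called higher and 4.22% lower. Of 33 chromatin and splicing proteins of proliferating cells 18 were called higher and 0 lower (median 0.61, with 0.49 in S and 0.78 in G2M cells). By its name this list holds genes of proliferating cells, so high values in cells chosen by phase scores are partly built into it. Of 33 MYC targets, MYC included, 10 were called higher and 0 lower (median 0.43), among them the nucleolar methyltransferase FBL at 1.9-fold and CDK4, which belongs to the genes set aside, while MYC itself stood at 80.0 CPM in G1 and 93.2 in cycling cells. Heat shock proteins had 6 of 14 called higher (median 0.44, with 0.20 in S and 0.71 in G2M cells), but the median was 0.06 within cluster 4 against 0.47 within cluster 3. In the other direction, 8 of 16 p53 targets were called lower and 0 higher (median -0.51). Within cluster 4 the p53 list had a median of -0.32 between cycling and G1 cells, and within cluster 3, with 40 cycling cells, it turned to 0.15. Examples were ZMAT3, 2.75-fold lower (2.21 to 3.46), and the BCL2-family killer gene BBC3, 1.78-fold lower (1.47 to 2.19), whose log2 ratio turned to 0.12 with G1 cells weighted to the cluster mix of clusters 3 and 4. ZMAT3, BBC3 and GDF15, the lowest of this list, met the 10 CPM mean through the G1 class only. A low ratio was thus built into their entry and their part of the p53 count. Growth arrest genes had 5 of 16 called lower (median -0.30), led by NDRG1 at 29.7 and 12 CPM and YPEL5 at 51.7 and 26.9 CPM, with medians of -0.18 within cluster 4 and -0.06 within cluster 3. The list of ERBB and growth factor receptors, which also holds ligands and binding proteins, had 3 of 7 called lower (median -0.33), namely the receptor genes ERBB2 (51.0 and 28.5 CPM) and ERBB3 and the secreted binding protein IGFBP5 described above, and the medians were -0.24 within cluster 4 and -0.07 within cluster 3. ERBB2 came inside 1.5-fold in both weightings of G1 cells (log2 ratios of -0.48 and -0.41), and FBL within cluster 4 (0.58). The chromatin and splicing list had medians of 0.33 and 0.32 within clusters 4 and 3, and the MYC list 0.29 and 0.21. Cycling cells of cluster 7 could only be set against G1 cells of another cluster, which mixes cluster with phase. Against G1 cells of cluster 4 the medians were 0.76 for chromatin and splicing, 0.42 for MYC and 0.59 for heat shock. They were -0.43 for p53, -0.30 for growth arrest and -0.35 for the ERBB list.

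Estrogen-induced genes had 1 of 30 called higher and 0 lower (median 0.03, and -0.09 after scaling without MALAT1, NEAT1 and mitochondrial transcripts), the called gene being PDZK1 (33.5 and 59.5 CPM, with a log2 ratio of 0.35 within cluster 4 against 0.81), and ESR1 stood at 15.5 and 16.7 CPM. Luminal factors and hormone receptors had 0 of 18 called in either direction (median -0.23). That median was -0.04 within cluster 4 and -0.10 within cluster 3, and -0.30 for cycling cells of cluster 7 against G1 cells of cluster 4. The 13 mitochondrial-encoded genes were all below 0 (median -0.23) with 0 called, and of 78 cytosolic ribosomal protein genes 68 were above 0 (median 0.18) with 0 called, medians that became -0.02 and -0.03 once G1 cells were weighted to the UMI and mitochondrial mix of the cycling cells. That weighting matches cells on mitochondrial percent, so the value near 0 for the mitochondrial-encoded genes was fixed by it. All 10 luminal markers were measured and 0 were called, summing to 10155 CPM in G1 and 9225 CPM in cycling cells. Blood and endothelial markers summed to 4.81 and 7.54 CPM, with 3 of 11 at 0 and 0 at 10 CPM or more. Basal and mesenchymal markers summed to 73.5 and 65.5 CPM, with 5 of 13 at 0 and 2 at 10 CPM or more, of which MYLK was called lower (31.9 and 14.0 CPM) and COL3A1 was not called (33.5 and 45.6 CPM). CYP19A1 had 0 UMIs in both the cycling and the G1 cells. EGFR had 0 UMIs in the cycling cells at a log2 ratio of only -0.02, so no difference was detectable for either gene.

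**Figure D4:**
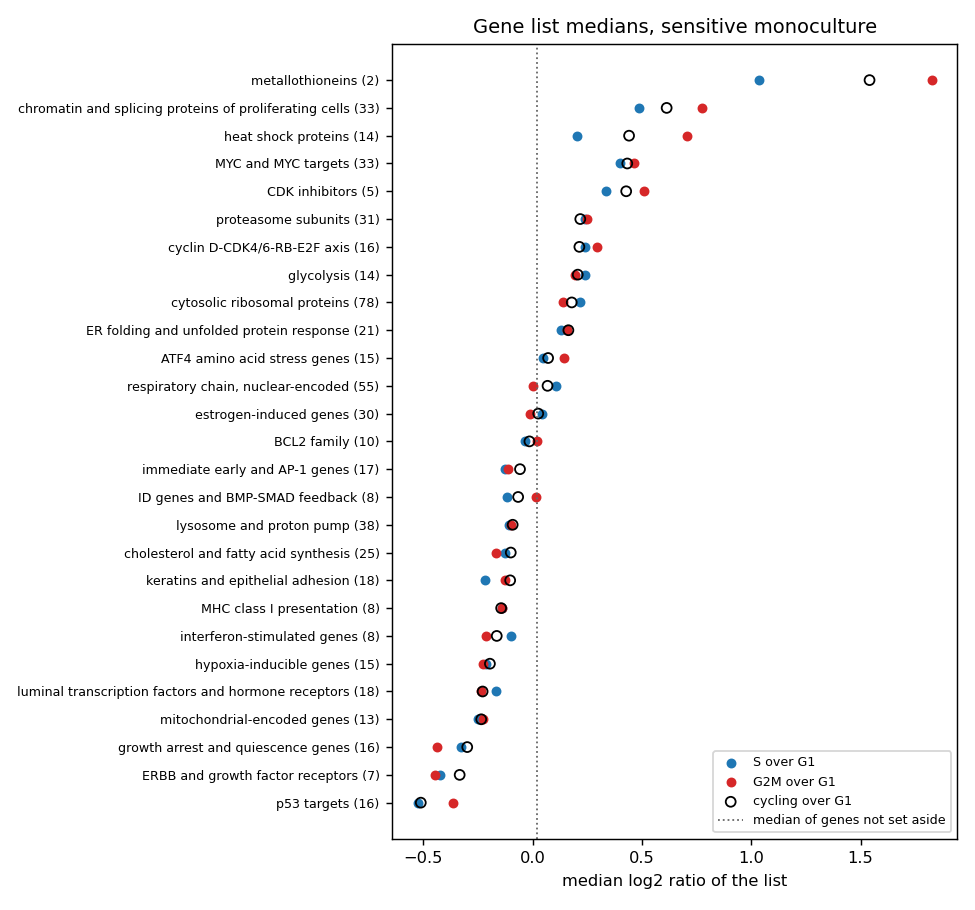
Each row is a gene list outside the cycle, marker and earlier-result lists, with its number of genes at 10 CPM or more, and the x axis is the median log2 ratio to G1 cells for S cells (blue), G2M cells (red) and all cycling cells (open circles). Among the lists drawn, metallothioneins and chromatin and splicing proteins lie highest and p53 targets lowest at -0.51, and the dotted line marks the 0.02 of all genes not set aside.

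The same contrast was made in the other populations, where 1138 to 3781 G1 and 921 to 3776 cycling cells were available. Fewer genes passed 1.5-fold there. Of the genes not set aside, 2.37% were called higher and 0.956% lower in cocultured sensitive cells, 2.08% and 0.676% in cocultured resistant cells, and 2.36% and 0.514% in monocultured resistant cells. Of the 304 genes higher in monocultured sensitive cells, 77 were called higher in all 3 other populations and 154 in 0 of them, and of the 278 lower genes 18 were called lower in all 3 and 216 in 0. A gene under the 10 CPM mean in another population counted as not called there. In the same order of populations, the 304 genes made up 78.8, 77.3 and 74.8% of the genes called higher there. The 278 genes made up 90.2, 74.4 and 87.5% of those called lower. The median log2 ratio of the 304 genes was 0.55, 0.53 and 0.53 in these populations, and that of the 278 genes -0.44, -0.37 and -0.31. Nearly all kept their direction there, with no minimum CPM asked, 304, 304 and 303 of the 304 higher and 276, 275 and 270 of the 278 lower genes. Most genes not called elsewhere thus kept their direction there. The share of all genes not set aside that kept their direction was not counted, so no background stands beside these counts. Whether the ratios differ between populations was not tested, and the G1 class may hold different cells in each.

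MT2A stood at 61.8 CPM in G1 and 348 in cycling cells of the sensitive monoculture, 253 and 596 CPM in the sensitive coculture, 259 and 699 CPM in the resistant coculture, and 235 and 509 CPM in the resistant monoculture. MUCL1 went from 1947 to 758 CPM in the sensitive coculture, from 735 to 312 CPM in the resistant coculture and from 384 to 216 CPM in the resistant monoculture. GAPDH, a glycolytic enzyme gene, stood at 1335 and 2040 CPM in the sensitive monoculture, a log2 ratio of 0.61 that became 0.20 once G1 cells were weighted to the UMI and mitochondrial mix of the cycling cells. Its log2 ratio was 0.21 in the sensitive coculture, 0.06 in the resistant coculture and 0.10 in the resistant monoculture.

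**Figure D5:**
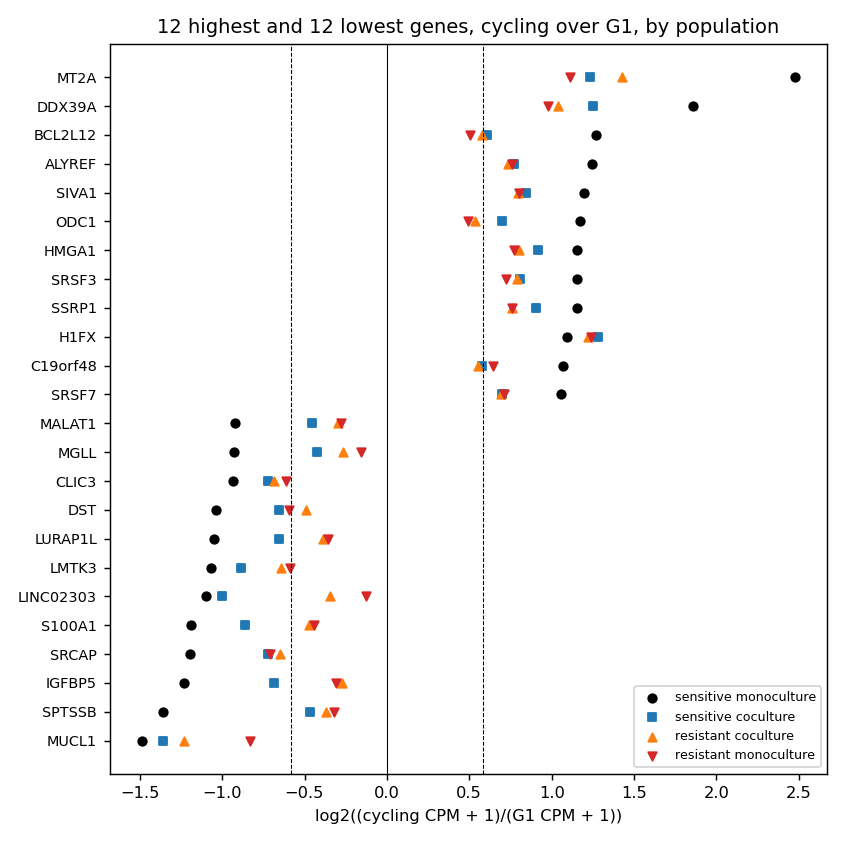
For the 12 highest and 12 lowest genes not set aside whose mean reached 50 CPM, the x axis gives the log2 ratio of cycling over G1 cells in each of the 4 populations, and dashed lines mark 1.5-fold. Black circles are monocultured sensitive cells, by which the genes were chosen, and they lie farthest out for most genes.

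On a line from monocultured sensitive G1 cells (0) to monocultured resistant G1 cells (1), over 2167 genes not set aside, the cycling sensitive monoculture cells lay at 0.224 (95% counting interval 0.221 to 0.227), with S cells at 0.228 and G2M cells at 0.220. Only 12% of their squared distance from the G1 cells lay along that line. Cocultured sensitive cells lay at 0.438 in G1 and 0.553 when cycling. By cluster, cycling cells lay at 0.233 in cluster 7, 0.296 in cluster 3 and 0.180 in cluster 4, and G1 cells at 0.234 in cluster 3, -0.005 in cluster 4, -0.114 in cluster 8 (679 of the 2963 G1 cells) and 0.0858 in cluster 12. MT2A (3.65%) and MUCL1 (3.51%) gave the largest shares of the shift. Each resistant population also lay farther along the line when cycling, at 1.07 against 1 in monoculture and 0.929 against 0.854 in coculture.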

How the data were processed

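Gene counts per cell, deposited by the authors as unnormalised UMI counts, came from Cell Ranger 3.0.2 with build GRCh37 per the submitters' processing notes. Phase scores, mitochondrial percent and clusters were deposited by the authors for the cells they annotated. The paper names a filter of at least 2 UMIs of either label. In the deposited counts only 44.3% of cycling and 38.9% of G1 sensitive monoculture cells had at least 2 mVenus UMIs, and 0 had an mCherry UMI. The cause of this gap was not tested. The score values are relative to control genes, and the percent values are per cell. The 3 libraries held 8643 to 20227 barcodes and 173405094 to 519475237 UMIs on named genes, and 0.523 to 0.591% of UMIs lay on rows with no symbol, which were left out. The deposited UMI totals differed from the sums by at most 6. Another 8 metadata columns were not used.

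Counts were summed per class and scaled to CPM with a pseudocount of 1 CPM. With 1 library per condition no test was possible. Intervals are exact Poisson or Clopper-Pearson at 95% and cover counting error only. Doublet scores came from scrublet in scanpy 1.11.5, and no cell was removed by them. Calls used a 1.5-fold limit and a mean of 10 CPM. Genes were named by rule: 12 highest and 12 lowest at 50 CPM, 5 each at 10 to 50 CPM, and the leading members of each list. The members and lists were chosen with earlier results of these data known. Scripts were checked on simulated counts. Alternatives included TMM factors from edgeR 4.0.16, thinning to 5000 UMIs, cell filters and new phase calls.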

Additional observations from a re-analysis of the deposited data

How the results depend on the processing

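No paired analysis was possible because each condition is 1 library. The counts below are genes called higher and lower among all tested genes (560 and 282 in the report) and, after "outside the lists", among genes not set aside (304 and 278). A pseudocount of 10 CPM gave 103 lower, and 164 and 100 outside the lists. Thinned cells gave 461 lower, 455 outside the lists. Phases called anew from thinned cells gave 346 and 114, and 128 and 112 outside the lists. G1 cells weighted to the cluster mix could use only clusters 3 and 4, since cluster 7 held 1 G1 cell, and gave 197 and 54, and 46 and 53 outside the lists. The cycling cells of cluster 7 were left out of that contrast. Cluster 4 alone gave 246 and 88, and 96 and 84 outside the lists. A minimum of 50 CPM gave 215 and 57, and 122 and 55 outside the lists, while a minimum of 50 UMIs in all gave 901 and 672, and 551 and 666. A 2-fold limit gave 250 and 44, and 48 and 42 outside the lists. Of the alternatives chosen after seeing the data, the UMI and mitochondrial weighting gave 91 lower, 87 outside the lists, the scaling without MALAT1, NEAT1 and mitochondrial transcripts gave 497 lower, and 183 and 491 outside the lists, and leaving out cluster 7 gave 268 higher, 107 outside the lists. The other counts stayed within 1.5 times. The position on the sensitive to resistant line was 0.25 over genes of at least 10 CPM, 0.263 with cycle genes included and 0.251 from the mean of each cell's own CPM, all outside the counting interval. Among named genes called in the report, BBC3 turned to 0.12 under the cluster mix and KRT81 to 0.59 in cluster 4 alone (log2 ratios), and 126 other values of called genes fell inside 1.5-fold. Genes that were not called also changed sign, such as NR3C1 (0.48 to -0.16), RB1 (0.20 to -0.22), ISG15 (-0.50 to 0.06) and PGR (-0.37 to 0.03). The cause of these changes was not tested. Without doublet scores above 0.25, 301 of the 304 and 270 of the 278 genes were still called. Depth limits genes under 10 CPM.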

Other observations

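Gene groups not described above are given beside all genes not set aside, whose median was 0.02 and of which 4.62% were called higher and 4.22% lower. Proteasome subunits had 30 of 31 genes above 0 (median log2 ratio 0.22, and 0.06 with G1 cells weighted to the UMI and mitochondrial mix of the cycling cells) with 0 called. Glycolysis genes had 2 of 14 called higher (median 0.21), the phosphofructokinase gene PFKP at 13.5 and 23.2 CPM and GAPDH. Endoplasmic reticulum folding genes had a median of 0.16 with 1 of 21 called lower, HERPUD1, a gene of protein degradation at that membrane, at 230 and 132 CPM. ATF4 amino acid stress genes had 2 of 15 called higher (median 0.07, and -0.05 to 0.13 over the alternatives). These were PHGDH and the mitochondrial folate enzyme gene MTHFD2 at 57.1 and 87.1 CPM, the latter one of the cycle genes set aside and so outside that background. The log2 ratios of PFKP (0.74), HERPUD1 (-0.80) and MTHFD2 (0.60) came inside 1.5-fold under several alternatives, as near to 0 as 0.24, -0.37 and 0.30.

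Hypoxia-inducible genes had 2 of 15 called lower (median -0.20), interferon-stimulated genes 1 of 8 (median -0.16), keratins and adhesion genes 3 of 18 (median -0.10) and the list of BCL2 family genes 2 of 10 (median -0.01), a list without BCL2L12, which was called higher. Under alternatives the hypoxia median reached 0.01 (without the cycling cells of cluster 7), the interferon median -0.002 (cluster 4 alone) and the keratin median 0.01 (clusters 3 and 4 weighted). BCL2L1, an inhibitor of cell death, stood at 43.1 and 27.4 CPM, and IFI6 at 26.8 and 13.8 CPM, but their log2 ratios of -0.63 and -0.91 came as near to 0 as -0.06 and -0.42 under alternatives, inside 1.5-fold. MHC class I genes (8 measured, median -0.14), ID and BMP feedback genes (8, -0.07), immediate early genes (17, -0.06), lysosomal genes (38, -0.09) and nuclear respiratory chain genes (55, 0.07) had 0 called. In the same order, alternatives moved these medians toward or past 0 as far as -0.004, 0.015, 0.003, -0.06 and -0.06. Sterol and fatty acid synthesis genes had 1 of 25 called in each direction (median -0.10), EBP higher at 71.4 and 121 CPM and MSMO1 lower at 40.6 and 25.8 CPM, with log2 ratios of 0.75 and -0.64 that came inside 1.5-fold within cluster 4, at 0.30 and -0.34. Of 10 genes earlier found lower in cocultured than monocultured sensitive cells of these same data, 6 were called lower in the cycling monoculture cells (median -0.86). The median of this list was -0.43 within cluster 4 and -0.11 within cluster 3, and -1.11 for cycling cells of cluster 7 against G1 cells of cluster 4. That list came from these samples and is no independent evidence.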
